A study of Homo sapiens with 12 samples.

Results

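Translation efficiency (TE), the ribosome coverage of a gene's coding sequence relative to its mRNA, was described for proliferating IMR90 cells. These are a strain of normal human fetal lung fibroblasts. The study set proliferating cells (Pro) beside senescent cells of the same strain (Sen), with 3 replicates of each state, and made 2 libraries from every replicate lysate. One was a Ribo-seq library of the mRNA fragments that ribosomes shield from RNase I (ribosome-protected footprints, RPF), and the other an RNA-seq library of poly(A)-enriched mRNA from a portion of the same lysate. The 6 Pro libraries of the 12 in the series are the ones described here, paired by replicate number, and each pair is called a lysate. No treatment was given in the labels. The names of the Pro RNA-seq tables carry a tag that resembles a vehicle control, which neither the labels nor the Pro Ribo-seq tables have, so whether it marks a treatment could not be checked. Cycloheximide was present in the lysis buffer, and the study used 2 isolates of the strain without a label saying which sample came from which. TE was computed for every gene with at least 50 coding-sequence (CDS) reads summed over the 3 Pro libraries of each type, which 6475 of the 38716 gene symbols in the tables passed.

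A ribosome covers a short stretch of mRNA while it reads the coding sequence, so the count of footprints reflects how many ribosomes occupy a message. The density depends on how often ribosomes start and on how fast they move, and a snapshot of footprints cannot tell the 2 apart. Several mRNA features are known to set initiation. Iron-responsive elements (IRE) are hairpins bound by iron regulatory proteins, upstream reading frames capture ribosomes before the main start codon, and terminal oligopyrimidine (TOP) tracts at the cap put the mRNAs of the translation machinery under control of the mTOR pathway.

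The sequences behind these 3 modes of control were read from the GENCODE v44 gene models on GRCh37, with DNA letters on the mRNA strand. The IRE was searched as a C, 5 bases, the loop letters CAGTGN with any base but G in the last place, and 5 bases that pair with the first 5, on the mRNA strand only. Of 17532 genes with a 5′ UTR of at least 30 bases, 10 (0.057%) held it there. The loop is in capitals in both ferritin mRNAs and in 1 of the 4 matches in the 3′ UTR of the transferrin receptor TFRC. They are shown because both ferritins had the lowest TE and TFRC, of the same iron control, a higher one. They lie at chr19:49468593-49468619 (plus strand), chr11:61735047-61735073 (minus strand) and chr3:195777851-195777877 (minus strand).
FTL 5′ UTR: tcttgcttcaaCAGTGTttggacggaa
FTH1 5′ UTR: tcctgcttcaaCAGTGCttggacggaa
TFRC 3′ UTR: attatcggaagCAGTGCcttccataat

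Short upstream reading frames, with the start codon in capitals, are shown for ATF4 and ATF5, transcription factors of the stress response, and for AMD1, which makes the decarboxylated precursor of the polyamines. They lie at chr22:39916653-39916664, chr19:50432531-50432542 and chr6:111195999-111196019, all on the plus strand. The models of ATF4 and ATF5 also each hold an upstream frame of 59 codons that runs into the CDS and is not shown.
ATF4 upstream frame: ATGgcgtattag
ATF5 upstream frame: ATGgctctgtag
AMD1 upstream frame: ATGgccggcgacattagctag

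The first 20 bases of 5 mRNAs of the translation machinery follow, with the pyrimidine run from the first base in capitals. RPS2 and RPLP0 encode ribosomal proteins with the lowest TE of that class, RPL38 the one with the highest, EEF1A1 the main elongation factor, and TPT1 the translationally controlled tumour protein. They lie at chr16:2014808-2014827 (minus strand), chr12:120638895-120638914 (minus strand), chr17:72199817-72199836 (plus strand), chr6:74230736-74230755 (minus strand) and chr13:45915299-45915318 (minus strand).
RPS2: CTTCTTTTCCgacaaaacac
RPLP0: CCTTCTCTCgccaggcgtcc
RPL38: CTTTTTCgtccttttccccg
EEF1A1: CTTTTTCgcaacgggtttgc
TPT1: CTTTTCCgcccgctcccccc

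The libraries differed in depth. The Ribo-seq libraries of lysates 1, 2 and 3 held 54323, 684957 and 1718431 CDS reads, and the RNA-seq libraries between 5183843 and 7405335. Lysate 1 also stood apart in that 77.5% of its footprints assigned to mRNA regions lay in CDS, against 94.4% and 95.8% in lysates 2 and 3. A count of 3 reads, the limit that a count of 0 allows, equals 54.1 CPM (counts scaled to the effective size of each library) in its Ribo-seq library and 4.42 and 1.77 CPM in the other two. Across genes, log2 TE correlated between lysates 2 and 3 with a Pearson's r of 0.895, and between lysate 1 and the other two with 0.517 and 0.524. Over the 420 genes with at least 1000 footprints these values were 0.975, 0.829 and 0.812. Genes are not independent replicates, so these values are a description. Of 9 fibroblast markers (COL1A1, COL1A2, COL3A1, THY1, PDGFRB, LUM, DCN, FAP and VIM) none was at 0, and they summed to between 39300 and 46000 CPM of mRNA. The 4 epithelial markers summed to at most 1.77 CPM and the 3 endothelial markers to at most 0.817 CPM. Among the 3 leukocyte markers CD68 reached 26.1 CPM, while CD3E had no read.

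TE is given as the log2 ratio of footprints to mRNA, each scaled within its library type, so that 0 means an equal share of both pools and not an absolute number of ribosomes. Both are counted over the CDS, so TE reflects a density along it and not the number of ribosomes per message. At a Benjamini-Hochberg adjusted p under 0.15 in edgeR's quasi-likelihood test, 2505 genes had a higher TE than 0 (38.7% of those tested) and 1755 a lower one (27.1%), or 65.8% in either direction. Leaving out lysate 2 gave 948 and 824, and leaving out lysate 3 gave 1092 and 863. Of the 2505 and 1755 calls with all 3 lysates, 508 were at least 2-fold higher (7.85% of genes tested) and 537 at least 2-fold lower (8.29%). The median gene had a log2 TE of 0.124, the middle 50% of genes lay between -0.352 and 0.545, and 1% of genes each lay below -1.96 and above 1.85. The split of calls rested on where 0 was set and on the filter. Higher calls were 58.8% of all calls as scaled and filtered here, 73.4% with at least 10 reads in every library, 47.7% with at least 2000 mRNA reads and no footprint minimum, and 49% when all 6 libraries were scaled together, which moved the median gene to 0.00176. The counts of each class below are therefore read against the shares of all genes.

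A gene could enter only with 50 footprints, and 4750 genes with enough mRNA reads had fewer. Scarce mRNAs thus entered mainly when their TE was high. The 125 genes with 50 or 51 footprints had a median log2 TE of -0.145, and the 104 genes just outside, with 48 or 49, had -0.101. Of 1823 genes with at least 2000 mRNA reads, 19 were left out for their few footprints. The lowest of them was LOC112268284, a symbol without a gene model here. Without the footprint minimum, B4GALT2, a galactosyltransferase of the Golgi, had 0, 3 and 7 footprints in lysates 1, 2 and 3 beside 579, 803 and 652 mRNA reads. Its log2 TE was -4.66 ± 0.275 (SE). The stress-response phosphatase subunit PPP1R15A, with 0, 14 and 27 footprints beside 846, 1239 and 1006 mRNA reads, had -3.25 ± 0.203, and the kinase CDK16 had -4.22 ± 0.225. So the low end of the range described below is the low end among genes with enough footprints only. LOC112268284, B4GALT2 and CDK16 were picked for these values after they were seen.

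**Figure D1:**
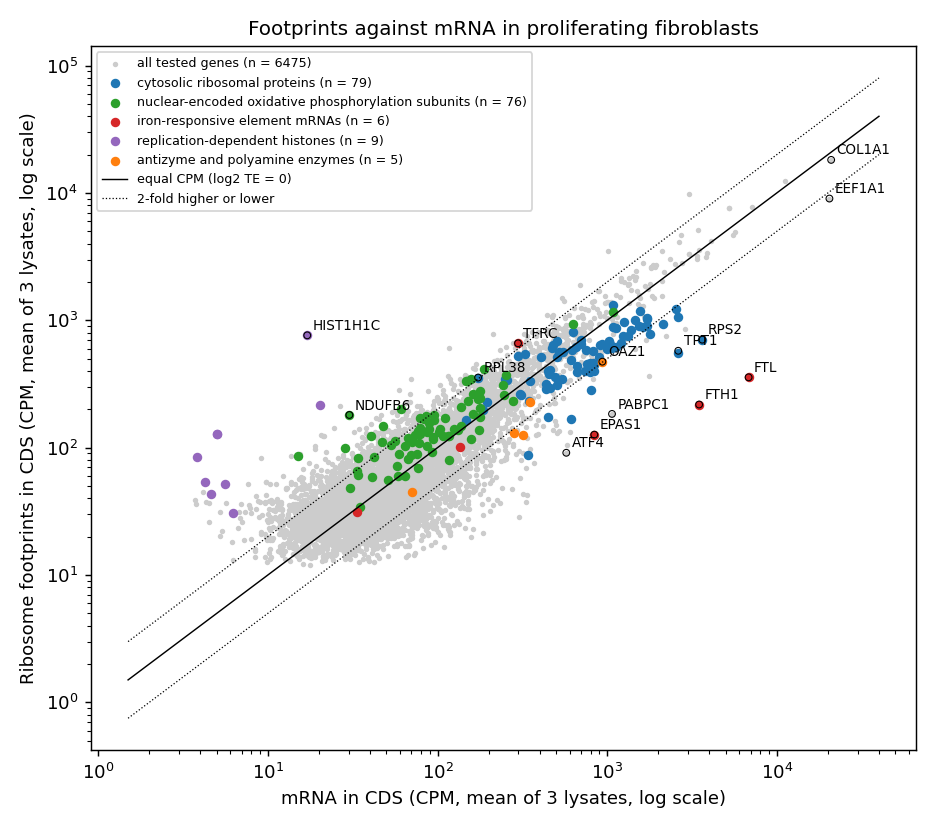
Mean CPM of footprints (vertical axis, log scale) against mean CPM of mRNA (horizontal axis, log scale) over the 3 lysates for 6475 genes (grey), with 5 classes in colour, the line of equal CPM and dotted lines 2-fold above and below it. FTL and FTH1 lie farthest below the line, at 6817 and 3483 CPM of mRNA, and HIST1H1C lies farthest above it, at 17.1 CPM of mRNA.

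The 2 ferritin mRNAs had the lowest TE of all genes tested. Ferritin is the iron store of the cell, built of a light chain (FTL) and a heavy chain (FTH1). FTL mRNA was at 6846, 7158 and 6447 CPM in lysates 1, 2 and 3, and its footprints were at 703, 183 and 184 CPM. Footprints were far below mRNA in all 3 lysates, with lysate 1 the least extreme. The log2 TE of FTL was -4.91 ± 0.219 (SE of the fit to 3 lysates, adjusted p = 1.05e-12), or 30.1-fold fewer footprints than mRNA. The lysates lay at -3.27, -5.29 and -5.13. Here and elsewhere the SE is that of the fit and does not measure the spread between lysates. FTH1 had 3884, 3654 and 2909 CPM of mRNA and 306, 208 and 140 CPM of footprints, which gave -4.21 ± 0.144 (adjusted p = 1.47e-14). EPAS1, the hypoxia-inducible factor HIF-2α, whose mRNA is also known for an IRE, was at 852, 925 and 743 CPM of mRNA and 144, 134 and 101 CPM of footprints. Its log2 TE was -2.82 ± 0.128 (adjusted p = 1.24e-12). The strict search did not find the IRE letters in its 5′ UTR.

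The receptor that brings iron into the cell stood on the other side. TFRC, whose IREs sit in the 3′ UTR and are known to act on mRNA stability, had 290, 285 and 320 CPM of mRNA and 649, 634 and 697 CPM of footprints. The lysates lay close together at 1.18, 1.16 and 1.12, and the fit gave 1.14 ± 0.0991 (adjusted p = 9.81e-09). The metal transporter SLC11A2 had -0.25 (adjusted p = 0.337), and the iron exporter SLC40A1 had 1 footprint in all and was not tested. Of the 6 IRE mRNAs tested, 4 were lower and 1 higher, with a median of -1.69 beside 0.124 over all genes. Outside this list, the IRE letters were also found in the 5′ UTR of the tested genes ADAR, at -0.20, and PRPF18, at 0.40, neither of which was called.

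The ferritin values touch genes with many copies in the genome. The share of 29-base CDS windows found exactly in a transcript of another gene, pseudogenes included, was 90.8% for FTH1, 60.8% for FTL and 0% for EPAS1 and TFRC. Adding the reads that the tables gave to the pseudogene FTH1P3, 10, 70 and 235 footprints in lysates 1, 2 and 3 and between 9477 and 13600 mRNA reads, moved the TE of FTH1 to -4.02. FTL was listed at 0 reads in the 5′ UTR in all 6 libraries, so how its reads were split between regions could not be checked. With the RNA-seq reads of all gene regions in place of CDS reads, the TE of FTL stood at -4.30 and that of FTH1 at -4.21. That setting adds UTR reads to the mRNA side alone, with no correction for length.

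Between FTH1 and EPAS1 in the order of log2 TE lay KIF1C, a kinesin motor (-3.41 ± 0.166), the ubiquitin ligase RNF10 (-3.39 ± 0.173), IRAK1, a kinase of interleukin-1 signalling (-3.31 ± 0.184), and the guanylate kinase GUK1 (-3.18 ± 0.192). The ubiquitin ligase TTC3 (-3.01 ± 0.156), KIAA0100 (-2.99 ± 0.167) and the Golgi glycosyltransferase MGAT4B (-2.89 ± 0.146) followed, and with the ferritins and EPAS1 these were the 10 lowest. KIF1C had 4, 22 and 44 footprints beside 1740, 2358 and 1983 mRNA reads in lysates 1, 2 and 3. Its TE was lower than 0 in each, at -2.04, -3.28 and -3.54. IRAK1, GUK1 and KIAA0100 also had their least extreme value in lysate 1, at -1.56, -1.24 and -1.27, where they had 3, 5 and 8 footprints. Of their 29-base CDS windows, 38.1% were shared with another gene for TTC3, 1.5% for KIF1C and none for the others.

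**Figure D2:**
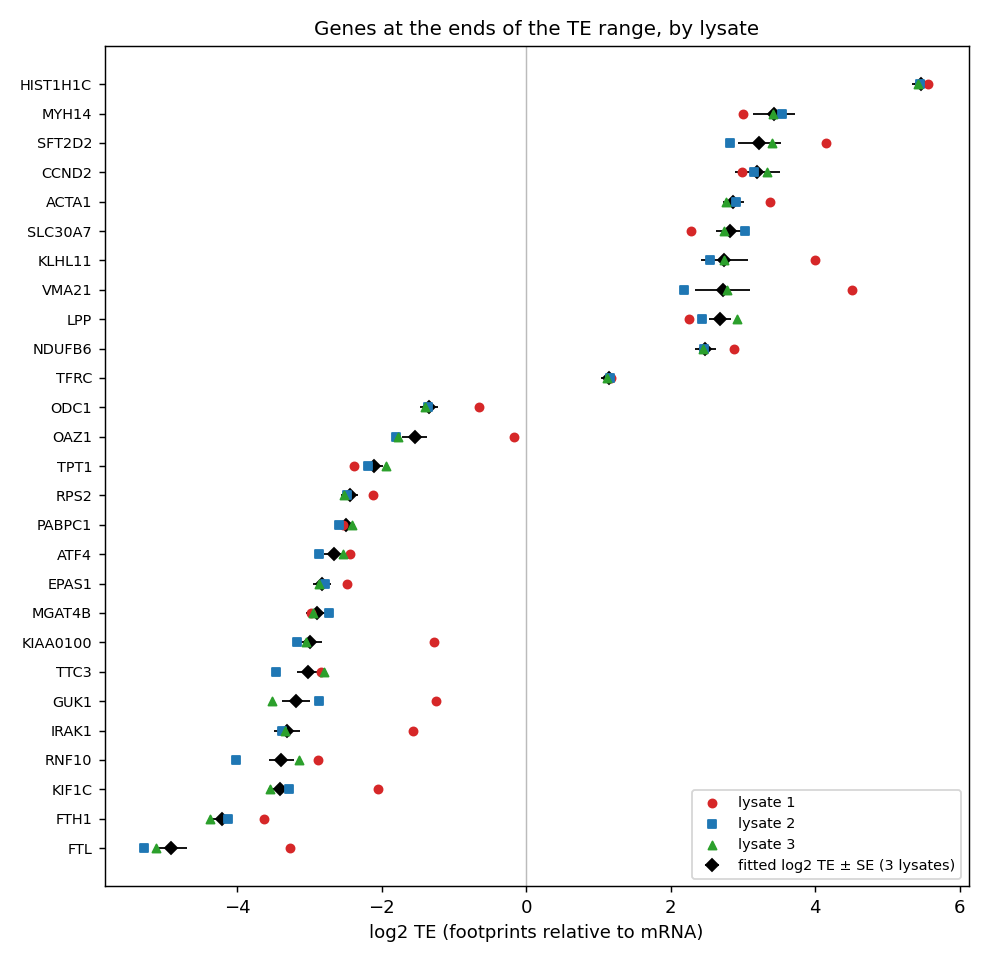
Log2 TE of the genes at both ends of the range and of selected genes with known translational control, with the fit over 3 lysates (black diamonds, bars are SE) and each lysate in colour. Lysates 2 and 3 lie close together for most genes, and lysate 1 departs most for GUK1, VMA21, IRAK1, KIAA0100 and FTL.

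Messages with known regulatory upstream reading frames fell on both sides. Of 15 members 10 were tested, 6 were lower and 3 higher, with a median of -0.549. ATF4, which is made when the stress kinases phosphorylate eIF2α, was the lowest of them. It had 634, 598 and 490 CPM of mRNA and 108, 81.0 and 84.2 CPM of CDS footprints, and a log2 TE of -2.66 ± 0.133 (adjusted p = 3.66e-12), with the 3 lysates between -2.87 and -2.44. The share of its CDS windows found in another gene was 65%. IFRD1 (-0.998 ± 0.204), IBTK (-0.98) and AZIN1 (-0.90 ± 0.131) were lower as well, as was AMD1 (-0.85 ± 0.182). The higher ones were the methionine synthase MTR (1.48 ± 0.206), the p53 ubiquitin ligase MDM2 (1.21) and the arginine transporter SLC7A1 (1.13). MTR had no footprint in lysate 1. PPP1R15B, at 0.29, was not called, and 4 members, ATF5, DDIT3, PPP1R15A and SLC35A4, had too few CDS footprints for the test.

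Some of these mRNAs held many footprints ahead of the main start codon. In ATF4, 11, 155 and 264 footprints lay in the 5′ UTR in lysates 1, 2 and 3, against 6, 55 and 143 in the CDS. The 5′ UTR thus took 67.8% of the footprints in both regions (95% Wilson interval 64.1 to 71.3), against 29.5% of the RNA-seq reads. In every lysate the 5′ UTR held more footprints than the CDS. An upstream frame of 59 codons overlaps the CDS of ATF4, and footprints on the overlap cannot be told apart from those of the main frame in its CDS count and TE. Over all tested genes the median share was 1.06% of footprints and 9.42% of RNA-seq reads, and ATF4 ranked 5th of 6475. Only 9 tested genes had more footprints in the 5′ UTR than in the CDS. SLC35A4, whose model holds an upstream frame of 103 codons, had 1, 13 and 50 footprints in the 5′ UTR and 1, 0 and 1 in the CDS, a share of 97% (89.6 to 99.2) against 52.5% of RNA-seq reads. ATF5 stood at 68.9% (54.3 to 80.5), DDIT3 at 64.9% (48.8 to 78.2) and AZIN1 at 39.9% (35.1 to 45). Other members lay below their RNA-seq share, with AMD1 at 12.8% (7.93 to 20.1) against 19.6%, CEBPB at 5.05% against 19.2%, MDM2 at 3.67% against 13.6%, SLC7A1 at 2.05% against 11.9% and MTR at 0 of its footprints against 1.28%. The Wilson intervals cover counting error only.

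**Figure D3:**
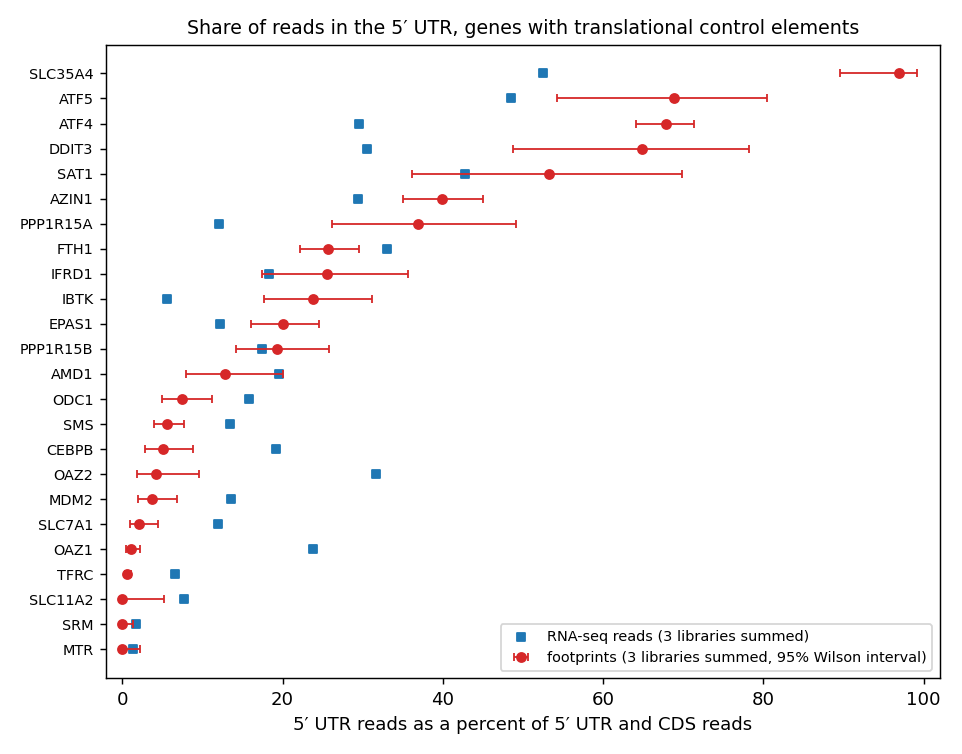
Share of 5′ UTR reads among 5′ UTR and CDS reads (horizontal axis, percent) in footprints (red, with 95% Wilson interval) and in RNA-seq (blue), both summed over the 3 Pro libraries, for the reported mRNAs with an upstream frame, a polyamine role or an IRE that had at least 30 footprints and any 5′ UTR mRNA read. The footprint share exceeds the RNA-seq share for SLC35A4, ATF5, ATF4 and DDIT3, and falls below it for OAZ1, OAZ2 and TFRC and for the upstream-frame mRNAs CEBPB, MDM2, SLC7A1, AMD1 and MTR.

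The enzymes of polyamine synthesis and their regulators shared a low TE. Antizymes (OAZ1, OAZ2) need a ribosomal frameshift to be made, and they bind ornithine decarboxylase (ODC1), the first enzyme of the pathway. All 5 tested of the 8 listed were lower, with a median of -1.35. OAZ1 mRNA was at 1017, 936 and 857 CPM and its footprints were at 901, 268 and 251 CPM. Lysate 1 was near 0 at -0.16, while lysates 2 and 3 lay at -1.80 and -1.77, and the fit gave -1.54 ± 0.175 (adjusted p = 3.5e-07). The spermidine synthase SRM had -1.40 and ODC1 had -1.35 ± 0.125 (adjusted p = 2.52e-08), with 180, 109 and 103 CPM of footprints beside 297, 281 and 272 CPM of mRNA. The spermine synthase SMS (-0.56) and OAZ2 (-0.55 ± 0.174) were less extreme. The files do not divide the CDS of an antizyme at its frameshift, so footprints before and after it were counted together.

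Most mRNAs of the cytosolic ribosomal proteins were called lower in TE. All 79 cytosolic ribosomal protein mRNAs were tested, and 54 were lower and 12 higher, or 68.4% and 15.2% beside 27.1% and 38.7% of all genes. Their median was -0.484, and -0.536, -0.564 and -0.372 in lysates 1, 2 and 3. RPS2 was lowest, with 3641, 3814 and 3455 CPM of mRNA, 829, 685 and 600 CPM of footprints and -2.44 ± 0.123 (adjusted p = 3.7e-12). RPLP0, a protein of the ribosomal stalk, had -2.28, RPL13A -2.23 and RPSA -1.91. At the other end RPL38 had 211, 177 and 133 CPM of mRNA and 396, 287 and 381 CPM of footprints, with a TE of 1.14 ± 0.135 (adjusted p = 5.98e-07). RPL36 (0.86), RPL34 (0.78) and RPS29 (0.52) were higher too.

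TOP mRNAs outside the ribosome followed the ribosomal proteins. Of 16 tested, 14 were lower and none was higher, with a median of -0.656 beside 0.124 over all genes. The poly(A)-binding protein PABPC1 had 1097, 1106 and 1001 CPM of mRNA and 180, 183 and 189 CPM of footprints, and the lysates lay at -2.54, -2.59 and -2.40. Its fit gave -2.49 ± 0.124 (adjusted p = 3.66e-12). TPT1 had -2.11 ± 0.121, EEF1G, a subunit of the elongation factor 1 complex, -1.77, and EEF1A1 -1.17 ± 0.127. The elongation factor EEF2 was called at -0.21 ± 0.11 (adjusted p = 0.109), a call that turned to 0.25 both with RNA-seq reads of all regions and with GC and length trends removed. RACK1, a protein of the small ribosomal subunit, stood at -0.00259 (adjusted p = 0.988), and at 0.35 with RNA-seq reads of all regions.

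The annotated mRNA starts matched the names of these classes. A first base C followed by at least 4 pyrimidines was found in 60 of 79 ribosomal protein models (75.9%) and in 14 of the 16 TOP models (87.5%), against 4.6% of all 19807 gene models. The difference in TE by start letters was not tested, and the medians were as follows. Ribosomal protein mRNAs with such a start had a median of -0.464 and those without it -0.597. Among the TOP mRNAs these were -0.577 and, for the 2 without it, -1.29, and among all tested genes 0.00573 and 0.131. The 316 genes outside both lists with such a start had a median of 0.139, and the remaining genes 0.135. RPL38, RACK1 and RPS2 all begin with such a run. Annotated starts are 1 per gene and were not measured in these cells.

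Reads of these genes are hard to place, since all 79 ribosomal protein genes shared over 5% of their 29-base windows with another gene, with a median of 77.8%, and 13 of the 16 TOP genes did. The shares were 89.9% for RPS2, 28% for RPL38 and 98.7% for EEF1A1. Footprints are shorter than RNA-seq reads, and the part of this difference in the low TE of the class was not tested. Without the genes over 5%, no ribosomal protein was left and the median of the 3 TOP mRNAs left was -0.21.

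Initiation and termination factors, by comparison, split as all genes did, with 16 of 36 higher, 8 lower and a median of 0.176. EIF4G2, a relative of the eIF4G scaffold that lacks the binding site for the cap-binding protein, was the lowest, with 2384, 2167 and 2105 CPM of mRNA, 937, 707 and 620 CPM of footprints and -1.63 ± 0.117 (adjusted p = 6.84e-10). None of its windows was shared. The scaffold EIF4G1 (-0.47) and the cap-binding inhibitor EIF4EBP1 (-0.93) were lower, whereas EIF2S1, the α subunit of eIF2, was the highest at 0.98 ± 0.125. Among 20 tRNA synthetases, 9 were higher and 2 lower, with a median of 0.173 between AARS at 0.81 and QARS at -0.45, which turned to 0.13 with RNA-seq reads of all regions.

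**Figure D4:**
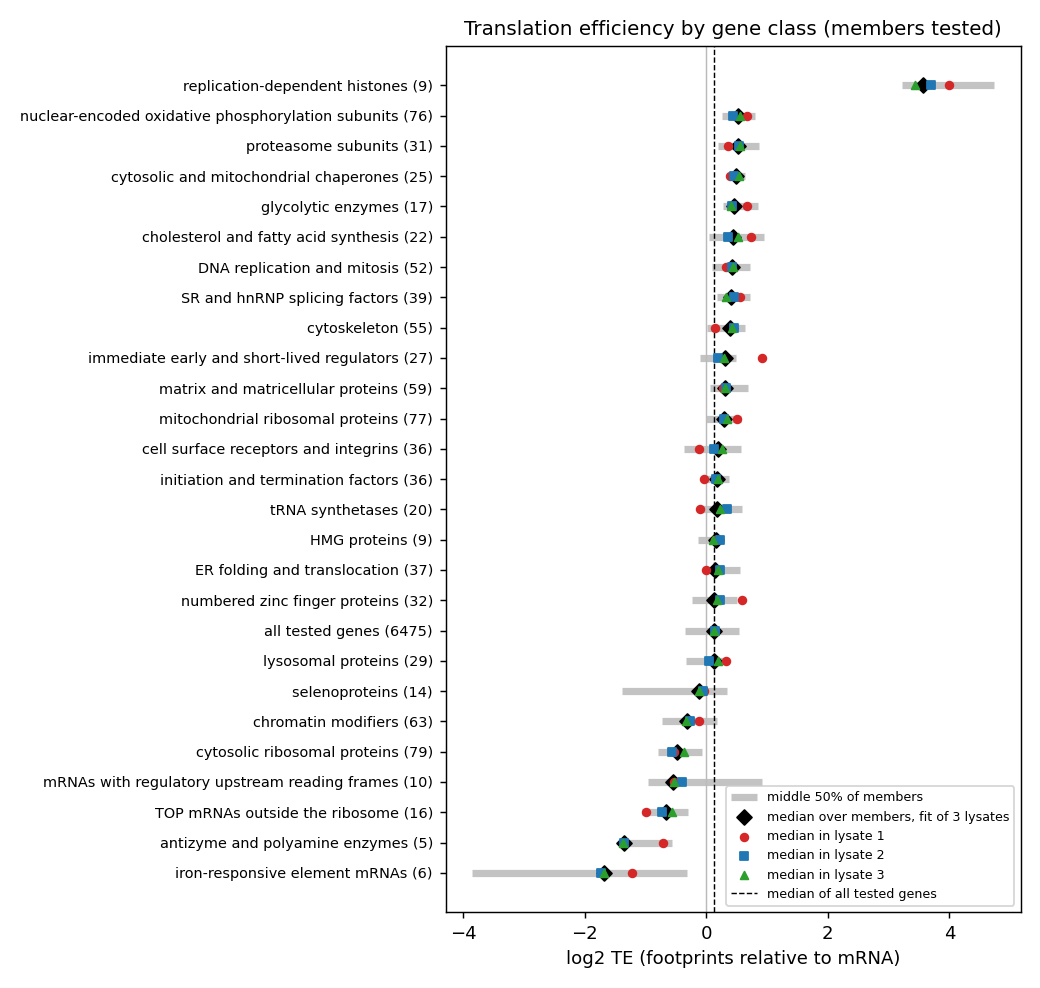
Log2 TE by gene class, ordered by the median, with the number of tested members in parentheses. Black diamonds are medians over members from the fit, grey bars the middle 50% of members, coloured symbols the median in each lysate, and the dashed line the median of all tested genes at 0.124; iron-responsive element mRNAs lie lowest at -1.69 and replication-dependent histones highest at 3.56.

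Energy metabolism lay on the high side. Of 76 nuclear-encoded subunits of oxidative phosphorylation, all tested, 59 were higher and 4 lower (77.6% and 5.26%), with a median of 0.524. The complex I subunit NDUFB6 had 28.1, 32.6 and 30.1 CPM of mRNA and 198, 178 and 165 CPM of footprints, and 2.48 ± 0.142 (adjusted p = 2.71e-11). NDUFB1 (2.16), NDUFC2 (1.79) and NDUFB3 (1.76), of the same complex, came next. The lowest was ATP5MC2, the c subunit of ATP synthase, at -0.37 ± 0.111, which turned to 0.26 with RNA-seq reads of all regions. Of 17 glycolytic enzymes, 13 were higher and none lower, with a median of 0.452, from HK2 (1.46 ± 0.202) to PFKL, which was not called at -0.16. GAPDH stood at 0.10 and was not called. Over 5% of 29-base windows were shared with another gene in 33 of the 76 subunits and 10 of the 17 glycolytic enzymes. The same held for 1381 of 6444 tested genes. HK2 was at 36.8% and GAPDH at 68.3%. Mitochondrial ribosomal proteins had 38 of 77 higher and 9 lower, with a median of 0.289, so that they and the cytosolic ribosomal proteins lay on opposite sides of the median gene.

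Protein quality control also lay on the high side. Of 25 chaperones 22 were higher and only CDC37 was lower, at -0.45 ± 0.12, with a median of 0.484. In 19 of the 25, over 5% of 29-base windows were shared with another gene, and the median share was 27.1%. The HSP90 co-chaperone PTGES3 was the highest at 1.41 ± 0.106, though 78.8% of its windows were shared with another gene, and the mitochondrial pair HSPE1 (1.13) and HSPD1 (0.68) were higher. Of 31 proteasome subunits 22 were higher and 2 lower, with a median of 0.518 and a range from PSMD2 (-0.38 ± 0.106) to PSMD12 (1.30 ± 0.126). PSMD2 turned to 0.23 with RNA-seq reads of all regions. The proteins of folding and translocation in the endoplasmic reticulum were nearer to all genes, with 16 of 37 higher, 7 lower and a median of 0.147. There the signal peptidase subunit SPCS3 reached 1.89 ± 0.126 and CRELD2 -1.06 ± 0.222. Lysosomal proteins, with 10 of 29 higher, 7 lower and a median of 0.123, lay at the median of all genes.

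Among matrix proteins, the fibrillar collagens that mark a fibroblast had a TE near 0. COL1A1, the α1 chain of type I collagen, had 18750, 21360 and 22620 CPM of mRNA and 18420, 18730 and 17380 CPM of footprints. Its log2 TE of -0.20 ± 0.118 (adjusted p = 0.154) was not called and turned to 0.30 with RNA-seq reads of all regions and to 0.55 with GC and length trends removed. Not called either were COL1A2 at 0.15 ± 0.113 and COL3A1 at 0.06 ± 0.124. Fibronectin FN1 was higher at 0.54 ± 0.114. Over the class, 34 of 59 were higher and 7 lower, with a median of 0.303. The highest members were the thrombospondin THBS1 at 895, 1017 and 1139 CPM of mRNA and 3063, 3601 and 3891 CPM of footprints (1.79 ± 0.107, adjusted p = 4.77e-11), IGFBP5 at 1.69 and CCN2 at 1.40. EFEMP2 (-1.26 ± 0.114) and LOXL1 (-1.21), both of elastic fibre assembly, were lowest. Cytoskeletal mRNAs had 34 of 55 higher and 8 lower, with a median of 0.392, VIM at 0.51 ± 0.114 and vinculin (VCL) at 1.17 ± 0.103. ACTB was called lower at -0.23 ± 0.109, but stood at 0.08 with GC and length trends removed. Of the 55 cytoskeletal genes, 30 shared over 5% of their 29-base windows with another gene, and ACTB shared 51.3%.

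Cell-cycle and cholesterol mRNAs were mostly higher, with opposite members inside each. Of 52 genes of DNA replication and mitosis 34 were higher and 3 lower, with a median of 0.428. TOP2A, the DNA topoisomerase of dividing cells, had 187, 198 and 204 CPM of mRNA and 252, 451 and 454 CPM of footprints, at 1.12, while the proliferation marker MKI67 was lowest at -0.60 ± 0.137. MAD2L1 of the spindle checkpoint (1.16 ± 0.166), CDK1 (1.10) and cyclin CCND1 (0.998 ± 0.118) were higher. MAD2L1 shared 48.7% of its 29-base windows with another gene. CCND1 turned to -0.31 with RNA-seq reads of all regions. In cholesterol and fatty acid synthesis 13 of 22 were higher and 2 lower, with a median of 0.442. The enzymes MSMO1 (1.65 ± 0.162) and CYP51A1 (1.29) contrasted with SREBF2, the transcription factor that drives their genes. SREBF2 had 194, 195 and 195 CPM of mRNA and 54.1, 67.8 and 72.5 CPM of footprints (-1.47 ± 0.135, adjusted p = 2.14e-08).

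In the nucleus, splicing factors and chromatin modifiers lay on opposite sides of the median gene. Of 39 SR and hnRNP proteins 29 were higher and 6 lower, with a median of 0.408, from SRSF1 (1.31 ± 0.11) to HNRNPUL1 (-1.22 ± 0.115). SRSF7 had 0.96 ± 0.116 and SRSF2 0.38 ± 0.159, the latter with 1.77 in lysate 1 and 0.05 and 0.35 in lysates 2 and 3, and SRSF2 turned to -0.08 with RNA-seq reads of all regions. Of 63 chromatin modifiers tested of 90, 33 were lower and 12 higher (52.4% and 19%), with a median of -0.325, and 26 more had mRNA but too few footprints. CHD3, a remodeller of the NuRD complex, had 291, 296 and 287 CPM of mRNA and 144, 73.7 and 50.7 CPM of footprints (-2.24 ± 0.156, adjusted p = 4.18e-10). KMT2E (-1.86), HDAC7 (-1.60) and the histone demethylase KDM5B (0.93 ± 0.127) marked the range. The median of this class moved to -0.08 once GC and CDS length trends were removed, and to 0.01 with RNA-seq reads of all regions. HMG proteins had 2 higher and 2 lower of 9, with HMGB1 at 0.34 ± 0.101 and HMGN1 at -1.50 ± 0.143. Shared windows made up 93.7% of HMGB1 and 74.6% of HMGN1, and 7 of the 9 exceeded 5%.

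The remaining classes were near the median gene or mixed. Of 27 immediate early and short-lived regulators tested of 41, 12 were higher and 4 lower, with a median of 0.304 in the fit but 0.913 in lysate 1. A further 10 had mRNA but too few footprints. JUN (0.49 ± 0.125) and CDKN1A, the p21 cell-cycle inhibitor (0.76 ± 0.123), were higher, and CDKN1A turned to -0.67 with RNA-seq reads of all regions. MYC, at 0.23 ± 0.142, was not called. Cell surface receptors and integrins ran from ITGA2 (1.67 ± 0.124) to EPHB4 (-1.53 ± 0.195), with 16 of 36 higher and 12 lower. Of 478 numbered zinc finger genes only 32 could be tested, since 294 had mRNA but fewer than 50 footprints, so their median of 0.135 describes the few with many footprints.

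Selenoproteins, which read a UGA codon as selenocysteine, spread widely around a median of -0.121. Of 14 tested, 5 were lower and 4 higher. GPX4, which reduces lipid peroxides, had 615, 635 and 567 CPM of mRNA and 144, 122 and 134 CPM of footprints (-2.19 ± 0.124, adjusted p = 2.36e-11). SELENON (-1.76), GPX1 (-1.70) and SEPHS2 (-1.64) were low too. SELENOI, an enzyme of phospholipid synthesis, was highest at 2.28 ± 0.239 and TXNRD1 stood at 0.42.

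The highest values of all came from replication-dependent histones, whose mRNAs are known to end in a stem-loop in place of a poly(A) tail. The RNA-seq libraries were poly(A)-enriched, so their mRNA reads cannot be taken as the amount of these messages, and their ratio is not a TE in the sense of the other genes. All 9 tested symbols were at least 2-fold higher, with a median of 3.56, and 65 more had too few mRNA reads. HIST1H1C had 17.3, 17.2 and 16.7 CPM of mRNA and 811, 754 and 720 CPM of footprints, at 5.46 ± 0.119 (adjusted p = 2.99e-18). HIST2H2AA3 and HIST2H2AA4, which are near-identical genes, held the same counts in all libraries, at 4.74. Counted once, they leave 8 values with a median of 3.41.

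Outside the histones, the highest TE belonged mostly to mRNAs of few reads, and the scarcest of them could reach the footprint minimum only where footprints were many. The non-muscle myosin MYH14 (3.43 ± 0.293), the vesicle protein SFT2D2 (3.23 ± 0.298), cyclin CCND2 (3.20 ± 0.308) and the skeletal actin ACTA1 (2.87 ± 0.144) led, followed by the zinc transporter SLC30A7 (2.82 ± 0.189), KLHL11 (2.74 ± 0.324), the proton pump assembly factor VMA21 (2.72 ± 0.378) and the focal adhesion protein LPP (2.68 ± 0.156). LPP had 20.8, 27.4 and 25.2 CPM of mRNA and 90.1, 147 and 191 CPM of footprints, and every lysate was above 2.2. CCND2 had 2, 28 and 56 footprints on 29, 34 and 21 mRNA reads. VMA21 spread from 2.18 to 4.51 over the lysates. SFT2D2 and VMA21 turned to -0.32 and -0.51 with RNA-seq reads of all regions, so that their place at this end rests on CDS reads. Long 3′ UTRs were found in the models of SFT2D2, CCND2, SLC30A7, KLHL11, VMA21 and LPP, from 4306 bases in VMA21 to 16193 in LPP. MYH14 had 750 bases and ACTA1 254, and the longest decile of tested genes began at 4590. The part of 3′ UTR length in these TE values was not tested. ACTA1 shared 12.6% of its windows with other genes, and its reads cannot be told apart from those of related actins there.

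Across all genes, TE went with features of the mRNA. The 3623 genes without an AUG in the 5′ UTR had a median log2 TE of 0.255, and those with 1, 2, 3 and at least 4 had -0.0471, -0.236, -0.26 and -0.325. Lower calls made up 19.8% of genes without an upstream AUG and 50.3% of those with at least 4. The order from 0 to 2 upstream AUGs held in each lysate, at 0.276, -0.0529 and -0.249 in lysate 1, and 0.263, -0.0365 and -0.21 in lysate 2. Among genes with a CDS GC content of up to 46.1%, those without an upstream AUG had 0.588 and the others 0.0946. From 54.9% GC upwards these were -0.0275 and -0.549. A purine at -3 and a G at +4 around the start codon went with 0.153 against 0.0958 for other contexts.

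Coding GC content showed a trend that lysate 1 did not share. The median went from 0.474 in the decile of genes with the lowest GC content, up to 41.2%, to -0.307 in the highest decile, from 62.4%. Spearman's rho across 6444 genes was -0.364 in the fit, -0.372 and -0.364 in lysates 2 and 3 and 0.00251 in lysate 1. Over the 419 genes with at least 1000 footprints lysate 1 had the opposite sign, at 0.15 against -0.236 and -0.23. Over the 391 such genes with a 5′ UTR, the rho of the upstream AUG count kept its sign, at -0.136, -0.125 and -0.17 in lysates 1, 2 and 3. Longer CDS went with lower TE, with a rho of -0.163, but with 0.14 among the 419 genes. Long 3′ UTRs went with higher TE (0.175). Higher mRNA levels, themselves the denominator of TE, went with lower TE among the tested genes. Scarce mRNAs passed the footprint minimum mainly when their TE was high, so the filter alone can give a negative rho. The part of the filter was not tested. For mRNA levels the rho was -0.301 in the fit, and -0.243, -0.298 and -0.288 in lysates 1, 2 and 3, all over the same filtered genes. These are correlations across genes of shared libraries, the features are tied to each other (0.293 between the GC content of CDS and 5′ UTR), and the part of library preparation in them was not tested.

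**Figure D5:**
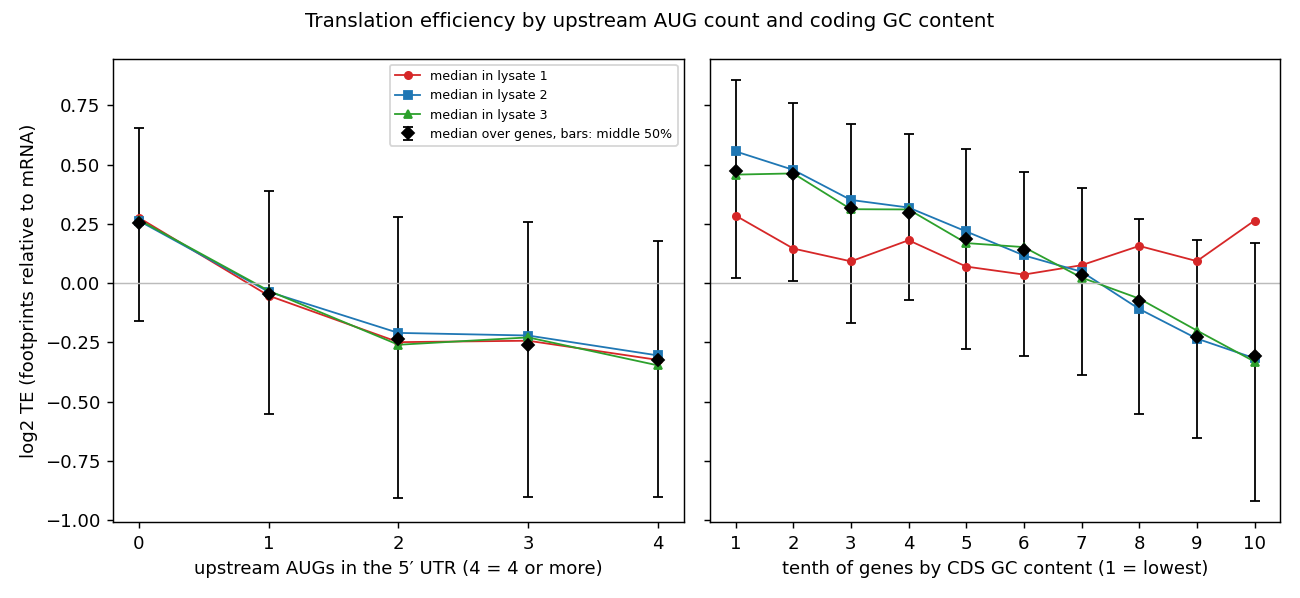
Median log2 TE by the number of AUGs in the 5′ UTR (left) and by decile of CDS GC content (right), with black diamonds for the fit, bars for the middle 50% of genes and coloured lines for each lysate. The 3 lysates fall together with the upstream AUG count, while lysate 1 does not follow the fall with GC content seen in lysates 2 and 3.

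Senescent cells of the same strain gave the comparison for these values. In a fit over all 12 libraries with a term for the difference in TE, 644 of 5416 genes differed (11.9%), 371 higher and 273 lower in Sen. The count was 1055 without Pro lysate 1, 118 and 116 without Pro lysates 2 and 3, and 206 and 144 without Sen lysates 1 and 3. The IRE mRNAs with low TE in Pro were higher in Sen, by 1.996 ± 0.244 for FTL (adjusted p = 2.48e-08), 1.11 ± 0.2 for FTH1 (adjusted p = 0.000258) and 1.19 ± 0.192 for EPAS1 (adjusted p = 3.17e-05). FTL was at -3.27, -2.38 and -2.86 in the 3 Sen lysates, against -3.27, -5.29 and -5.13 in Pro, so the groups overlapped at lysate 1. FTH1 in Sen lay between -3.27 and -3.04, above all 3 Pro lysates. For TFRC the difference was -0.22 and not called. EEF2 was higher in Sen by 0.995 (adjusted p = 4.12e-05), with 0.57, 0.86 and 0.84 against -0.08, -0.35 and -0.17, and the ratio of HIST1H1C, which is not a TE in the sense of the other genes, had a difference of -3.70. ATF4 did not pass the test, with a difference of -0.05 ± 0.226. The genes were named for their values in Pro, which also enter this difference.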

How the data were processed

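For each library the authors deposited a table of reads per gene in the 5′ UTR, CDS, 3′ UTR and pseudogenes, as estimated counts, since 12.1% to 20.5% of nonzero CDS values were fractions. Per the labels and the study, the processing used cutadapt 1.18, Bowtie 1.0.1 and SAMtools 1.8, and fragments of footprint size were selected. The genome build and annotation behind the tables are not given in the sources used here. Counts were rounded. Log2 TE was the library-type coefficient of edgeR 4.0.16 (R 4.3.3) glmQLFit and glmQLFTest with lysate as a block, TMM factors within each library type and Benjamini-Hochberg adjustment over all tested genes; the SE is the coefficient divided by the root of F. Lysate values used a pseudocount of 0.5. The 6 Pro libraries had 54323 to 7405335 CDS reads. An interaction term over 12 libraries compared Sen with Pro. Replicates were described by the study as independent. Pairs share a lysate in the study's methods, and deviations of paired libraries correlated with 0.0236, -0.0338 and 0.0715.

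The genes named are the 10 highest and 10 lowest calls outside histones with 1 sign in every lysate that had a footprint, the highest and lowest member of each of 27 lists, and 33 fixed genes; 2 of the 10 highest and some other members are not reported here, and further members are given as examples of their list. Members, lists and tests were chosen with earlier results of these data known. The list of mitochondrially encoded mRNAs matched 0 symbols. Of the tested symbols 6444 matched a GENCODE v44 model on GRCh37, which gave lengths, GC content and sequences. On simulated counts of 6475 genes the test recovered 95% of genes changed by 1 on the log2 scale, with 7.14% false calls, and the interaction test, on 5049 genes, 21.8%, with 6.59% false calls. Alternatives used DESeq2 1.42.0, limma 3.58.1, other scalings, filters and left-out lysates.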

Additional observations from a re-analysis of the deposited data

Results flagged for a closer look

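In the fit over all 12 libraries, TE differed between Sen and Pro (edgeR quasi-likelihood test of the difference, adjusted p under 0.15) for 23 of the 85 named genes that could be tested, or 27.1%, against 11.9% of all genes. Differences are given on the log2 scale as Sen minus Pro, and the Pro values that named the genes enter them. Of the iron mRNAs, FTL had 1.996, FTH1 1.109 and EPAS1 1.191. Of the translation machinery, EEF1A1 had 0.6246, EEF2 0.9954, RACK1 0.6934, TPT1 0.4436, QARS 0.6276 and EIF4G2 -0.562. Among mRNAs with upstream frames or a polyamine role, AZIN1 had -0.564, PPP1R15B -0.7386 and ODC1 0.6365. The histone HIST1H1C had -3.697, a ratio to poly(A)-enriched reads that is not a TE in the sense of the other genes.

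Of the remaining genes, 3 of the high end were MYH14 at 1.184, CCND2 at 0.9434 and ACTA1 at 0.8563, while SFT2D2, SLC30A7, KLHL11 and LPP did not pass. MAD2L1 had 0.8921, CDC37 0.5918, MAN2B1 0.55, PFKL 0.5147 and FN1 0.5086, while PSMD12 had -0.7412 and PTGES3 -0.4767. FTL, FTH1, EPAS1, EEF2, ACTA1 and HIST1H1C passed the test under each of the 9 alternatives run for them: DESeq2, no replicate block, library totals and each left-out lysate. FTL passed only narrowly with DESeq2 (adjusted p = 0.141). ACTA1 was also near the limit, with an adjusted p of 0.114 in DESeq2. In edgeR it had 0.128 without Pro lysate 3 and 0.141 without Sen lysate 3. The other 17 lost the call under at least 1 alternative, and TPT1 passed under 2 of 9.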

How the results depend on the processing

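The scaling and the filter moved the balance of calls, and the filter, the tool and the left-out lysates their number. The alternatives with no footprint minimum, with sequence trends removed and with shared sequence left out were chosen after seeing the data. With at least 1 summed read, lower calls were 3382, and 1055 and 1879 genes were at least 2-fold higher and lower. With at least 10 reads in every library the counts were 663 higher and 240 lower, 120 and 36 of them at least 2-fold. With at least 2000 mRNA reads and no footprint minimum they were 681 and 746, with 62 and 286 at least 2-fold. DESeq2 called 1424 higher and 1095 lower, and 78 genes between Pro and Sen. With RNA-seq thinned to the Ribo-seq depth 323 genes were at least 2-fold higher.

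Leaving out 1 lysate gave 948 to 2627 higher and 824 to 1894 lower calls, the fewest without lysate 2. It gave 453 to 544 genes at least 2-fold higher and 533 to 583 lower. The count of genes that differed between Pro and Sen ran from 116, without Pro lysate 3, to 1055, without Pro lysate 1. Lysates pair the libraries, and without the replicate block 2655 genes were higher and 1860 lower, and 808 differed between Pro and Sen.

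With RNA-seq reads of all gene regions in place of CDS reads, the sign turned for SFT2D2 (-0.3165), VMA21 (-0.5055), RACK1 (0.3494), PFKL (0.2939), ATP5MC2 (0.2585), PSMD2 (0.2261), QARS (0.1329), HMGN4 (-1.381), ZNF24 (-0.04692), EEF2 (0.2454), COL1A1 (0.3018), CDKN1A (-0.6655), CCND1 (-0.3058) and SRSF2 (-0.08272). With GC and CDS length trends removed it turned for PFKL (0.3383), EEF2 (0.2486), COL1A1 (0.5455) and ACTB (0.07562). With all regions, UTR reads entered the mRNA side alone, with no correction for length. Genes that turned lower there had a 3′ UTR longer than the CDS in their gene model, as in SFT2D2 (10481 against 480 bases). Those that turned higher had a shorter one, as in RACK1 (80 against 951 bases), except QARS, which had no model. The cause was not tested. Over all genes tested, calls of opposite sign appeared under these 2 alternatives and under none of the others run. The shallow Ribo-seq library of lysate 1 limits single-lysate values of genes with few footprints.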
